A study of Mus musculus with 8 samples.

Results

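Lysosomal hydrolases, lysosomal membrane proteins and the subunits of the proton pump were examined in sorted bone marrow macrophages of mice with and without myeloma. The set held 40 named genes out of 47643 gene identifiers in the macrophage count table, and all 40 were found there by symbol. By role they were 16 hydrolases, 3 activators and luminal carriers (Psap, Gm2a and Npc2), 7 membrane proteins, the transcription factors Tfeb and Tfe3, and 12 subunits of the V-ATPase, of which 6 belong to V1, 4 to V0 and 2 are accessory. All mice were WT of strain B6 and had received no treatment. GFP+ Vk*MYC cells, a transplantable mouse plasma cell tumour isolated by CD138, had been placed into the tibia of the tumour-bearing animals. From their marrow, F4/80 high CD11b low tumour-associated macrophages (TAM) were sorted by flow cytometry into GFP+ cells, called TAM-IC because they were in contact with myeloma (n = 2), and GFP- cells, called TAM-NIC, which were not (n = 2). Marrow macrophages of naive mice were the control group (n = 2). Another 2 libraries held plasma cells, sorted as CD138 high. Contact is thus defined by the GFP signal of the sorted macrophage. The labels give neither the age of the mice nor the number of animals behind a library, and where they name no animal the p-values measure only the spread between these samples.

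The lysosome is the acidic compartment in which macrophages break down what they engulf, and it is among their most developed organelles. Soluble hydrolases cleave the sugars, lipids and proteins of the cargo, activator proteins present lipids to these enzymes, and heavily glycosylated membrane proteins line the wall and carry products out. The V-ATPase pumps protons into the lumen: its V1 sector splits ATP on the cytosolic side, and its V0 sector carries the protons through the membrane. The related factors Tfeb and Tfe3 bind a short palindrome in the promoters of many of these genes, built around the E-box CACGTG.

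The macrophage libraries held 28887725 to 46873056 gene counts and the plasma cell libraries 81792139 and 38343783. A count of 0 would allow up to 3 counts, or 0.064 to 0.104 CPM (the count scaled to the library total), for counting error only. Immunoglobulin genes took 9.13% of the counts of TAM-NIC replicate 2 and between 0.166% and 0.632% of the others. Adgre1, which encodes the sorted antigen F4/80, was present at 1223 and 599.8 CPM in TAM-NIC, 519 and 549.8 CPM in TAM-IC, and 1134 and 587 CPM in naive macrophages. The 15 fixed markers of resident macrophages summed to 26664 and 18626 CPM in TAM-NIC, 6289.9 and 5864 CPM in TAM-IC, and 34652 and 16942 CPM in naive macrophages, lower in both libraries of TAM-IC than in the other 4. The library of TAM-IC replicate 2 had 0 counts of Xist and 3725 of Ddx3y, whereas TAM-NIC replicate 2 had 1253 and 8, so these libraries do not hold the same animal although both are called mouse 2. In whole-population RNA such as this, fewer cells of a type and less RNA per cell cannot be told apart.

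Promoter sequences are shown because the E-box is what Tfeb and Tfe3, themselves members, are known to bind. RefSeq promoters (GRCm38.p6, 250 bases before to 50 bases after a start site) were found for 34 of the 40 members, and for 6 (Asah1, Npc1, Atp6v1b2, Atp6v1c1, Atp6v1h and Atp6v0d2) none was used. The 6 letters CACGTG, which read the same on both strands, stood in a promoter of 11 of these 34 members (32.4%) and of 8.09% of the 27025 genes in the table. The 8 letters TCACGTGA, which contain them and are the inner part of the palindrome, stood in 5 of 34 (14.7%) against 1.12% of the genes. Those 5 were Gla, which holds 2 copies, Mcoln1, Cln3, Atp6v1a and Atp6v0d1. A match is a description of the letters and not a measured binding site. The sites below run 5′ to 3′ on the strand of the gene, and the capitals mark the match.
Gla site (chrX:134601216-134601243, minus strand): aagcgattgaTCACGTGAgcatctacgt
Gla site (chrX:134601183-134601210, minus strand): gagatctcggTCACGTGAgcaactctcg
Mcoln1 site (chr8:3500463-3500490, plus strand): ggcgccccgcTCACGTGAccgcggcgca
Cln3 site (chr7:126583341-126583368, minus strand): acgggtactgTCACGTGAcccccaacct
Atp6v1a site (chr16:44139374-44139401, minus strand): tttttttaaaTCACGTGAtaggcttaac
Atp6v0d1 site (chr8:105566051-105566078, minus strand): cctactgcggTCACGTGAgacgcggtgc
Gaa site (chr11:119267811-119267840, plus strand): tttctgtgcgatCACGTGtttgactctgac
Glb1 site (chr9:114401018-114401047, plus strand): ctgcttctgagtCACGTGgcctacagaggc
Naglu site (chr11:101070009-101070038, plus strand): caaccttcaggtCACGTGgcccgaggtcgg
Lamp1 stretch (chr8:13159088-13159160, plus strand): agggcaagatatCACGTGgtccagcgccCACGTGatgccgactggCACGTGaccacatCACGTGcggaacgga
The Lamp1 stretch ends at the base before the start site and carries 4 copies of the E-box within its 73 bases. In Gla both copies lie between bases -228 and -188 relative to the start. The Atp6v0d1 match spans the start itself.

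Psap was the most abundant member per length of exon, with a mean of 2092 CPM per kb over the 6 macrophage libraries (range 1297 to 3247). It encodes prosaposin, which is cut into the saposins that help enzymes reach sphingolipids. Lamp1, the main glycoprotein of the lysosomal wall, came next at 755 CPM per kb (range 553 to 1202), below Psap in every library. Hexa, the alpha subunit of beta-hexosaminidase, had a mean of 337 CPM per kb (range 172 to 501). The range of Hexa overlapped that of Asah1, acid ceramidase, at 220 CPM per kb (range 166 to 347). Within libraries Hexa was above Asah1 except in TAM-IC replicate 2, at 172 against 193 CPM per kb. Of the proton pump, the accessory subunit Atp6ap1 had the highest mean at 191 CPM per kb. It was above Atp6ap2 except in TAM-NIC replicate 2, at 135 against 155 CPM per kb. By mean the lowest members were the V0 subunits Atp6v0d2 at 1.86 and Atp6v0c at 2.54 CPM per kb, followed by the cholesterol exporter Npc1 at 3.63 CPM per kb. Their order varied between libraries. In TAM-IC Npc1, at 2.00 and 1.89 CPM per kb, was below Atp6v0c, at 2.65 and 2.01. In TAM-NIC replicate 1 Atp6v0d2, at 6.41, was above Atp6v0c, at 3.72. Lengths count every annotated exon base of a gene, so these levels are approximate. Atp6v0c has near-identical pseudogene copies, and its counts are uncertain where reads fit more than a single place. Exons of 11 members share bases with another gene, most in Arsb (32.3% of its exon bases), Arsa (18.8%) and Hexa (12.8%), and the library kit does not mark the strand.

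**Figure D1:**
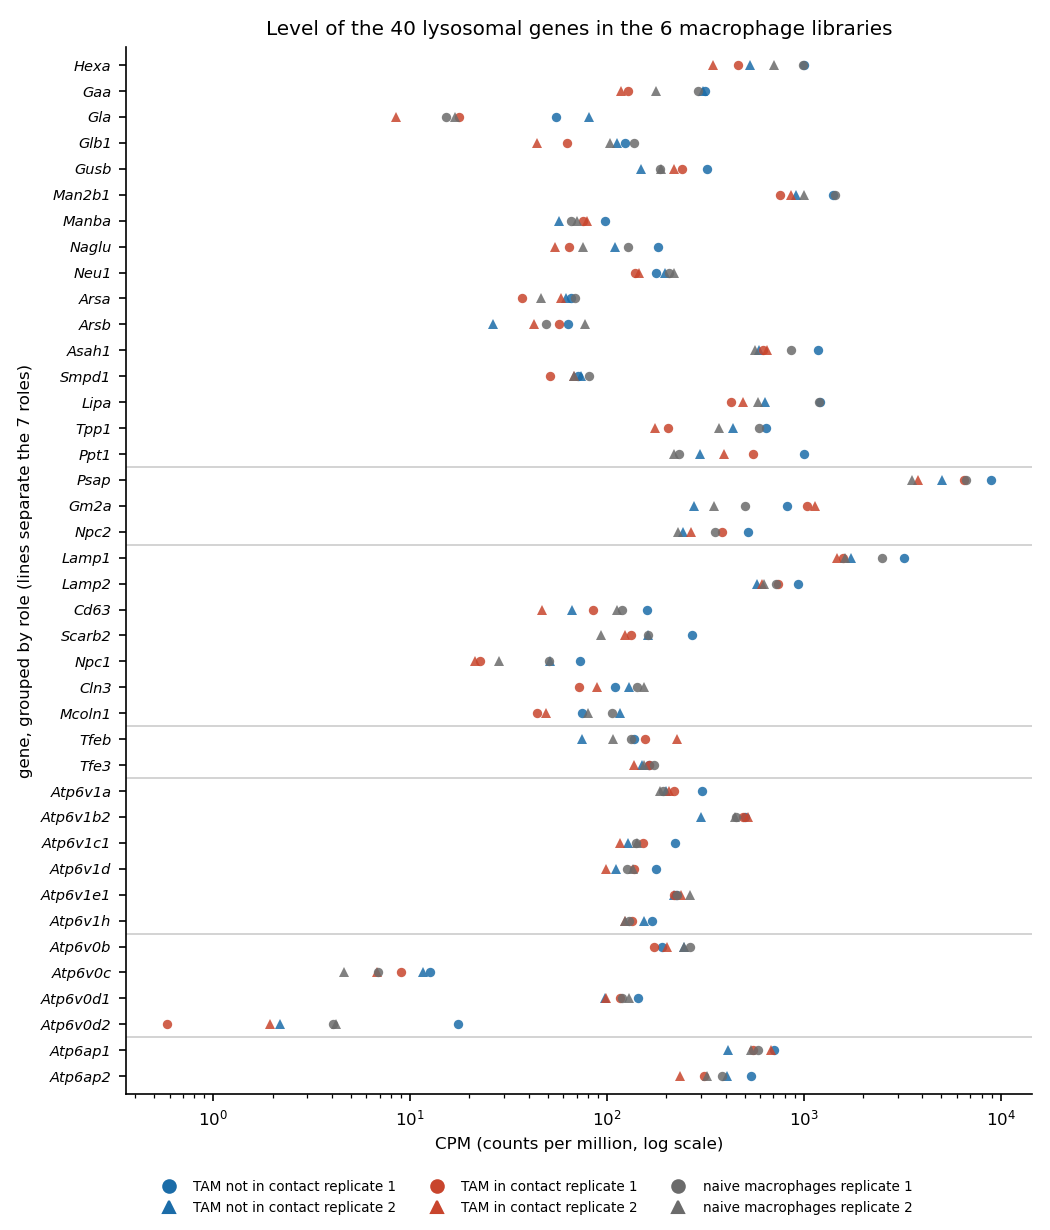
Level of each of the 40 genes (rows, grouped by role) in CPM on a log axis, 1 point per macrophage library, coloured by group, with circles for replicate 1 and triangles for replicate 2. Psap and Lamp1 lie farthest right and Atp6v0d2 farthest left, and the points of TAM-IC (red) lie at the left end of rows such as Gaa, Tpp1 and Glb1.

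All 40 members together took 2.65% and 1.55% of the counts of TAM-NIC, 1.73% and 1.43% of those of TAM-IC, and 2.08% and 1.41% of those of naive macrophages, where each pair of values gives replicate 1 before replicate 2, as in the pairs that follow. The groups overlapped in this sum. In the plasma cell libraries the members took 0.297% and 0.172% of the counts. The labels do not say which of the plasma cell libraries is myeloma and which is polyclonal, so each is given alone, and the tables were made separately, so no test was run. Of the 40 members, 37 lay below all 6 macrophage libraries in both plasma cell libraries, against 68.8% of the 15326 tested genes found in both tables. Among them were Cd63, a tetraspanin of late endosomes and lysosomes, at 2.29 and 2.19 CPM, and Lipa, the lysosomal acid lipase, at 33.9 and 15.7 CPM. The other 3, named here after their values were seen, were Gla at 9.63 and 11.4 CPM, Glb1 at 79.8 and 56.1 CPM and the acid sphingomyelinase gene Smpd1 at 73.4 and 45.7 CPM. Psap, the most abundant member in macrophages, stood at 464 and 217 CPM in plasma cells.

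The comparison of TAM-IC with TAM-NIC addresses how macrophages of tumour-bearing marrow that carry myeloma GFP differ from those that do not. At least the libraries called mouse 2 come from different animals. Hydrolases and membrane proteins were lower in TAM-IC for most genes. The 12 proton pump subunits together had a median nearer 0, at -0.25, but that of the 4 V0 subunits was -0.41. No member passed edgeR's quasi-likelihood test after Benjamini-Hochberg adjustment over the 15522 genes tested (0 of 40, and 0.0% of all genes). The log2 fold change was negative for 33 of 40 members, against 50.1% of all genes, and its median was -0.42 against -0.00. The libraries of the groups did not overlap for 20 members that were lower in TAM-IC, against 22.3% of all genes, and for 2 that were higher (Gm2a and Tfeb), against 24.4%. At an unadjusted p under 0.05, 9 members were lower and 0 higher, against 10.0% and 7.09% of all genes. DESeq2 called 7 members lower (Gla, Gaa, Glb1, Naglu, Tpp1, Npc1 and Atp6v0d2) and 0 higher, against 7.36% and 2.98% of all genes, and limma-voom called 0. Naglu was named after its values were seen.

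Libraries and other cell types moved with this comparison. TAM-NIC replicate 1 was the highest of the 6 libraries for 25 of 40 members, and its median member ratio to replicate 2 was 1.60, against 0.922 over all genes tested. Without replicate 1 the member median was -0.12, with 21 members lower and 13 higher without overlap (43.8% and 40.8% of all genes) and Gla and Gm2a called, 2 of 40 against 8.86% of all genes. In that fit the lone library left is assumed to vary like the other groups. Without replicate 2 the median was -0.71, with 35 lower and 2 higher (35.4% and 43.3%). Of the resident macrophage markers, 14 of 15 were lower in TAM-IC without overlap, at the summed levels given above and with none at 0 in any library. Of the monocyte markers, 9 of 10 had a positive log2 fold change, with sums of 2070.3 and 3106 CPM in TAM-NIC, 3391 and 6642 CPM in TAM-IC, and 979 and 1233 CPM in naive macrophages. All 12 neutrophil markers also had a positive value, with sums of 9659 and 19575 CPM in TAM-NIC, 53986 and 30812 CPM in TAM-IC, and 52922 and 82271 CPM in naive macrophages. No marker of these 2 lists was at 0 in a library. Of the 10 eosinophil markers 7 were higher and 1 lower without overlap, and DESeq2 called as many in each direction, with a median of 4.45 and sums of 242 and 638 CPM in TAM-NIC, 967 and 1499 CPM in TAM-IC, and 1756 and 2372 CPM in naive macrophages; Ear6 was at 0 in TAM-NIC replicate 1. All 10 markers of megakaryocytes and platelets were lower without overlap, with a median of -2.62 and sums of 125 and 282 CPM in TAM-NIC, 73.5 and 55.8 CPM in TAM-IC, and 84.2 and 89.9 CPM in naive macrophages, and Gp6 was at 0 in TAM-IC replicate 2 and both naive libraries. The 12 plasma cell markers were all negative and 8 of them lower without overlap, with a median of -3.43 and sums of 3426 and 30218 CPM in TAM-NIC, 1926 and 2001 CPM in TAM-IC, and 3009 and 4036 CPM in naive macrophages. The part of these cells in the lysosomal values was not tested.

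**Figure D2:**
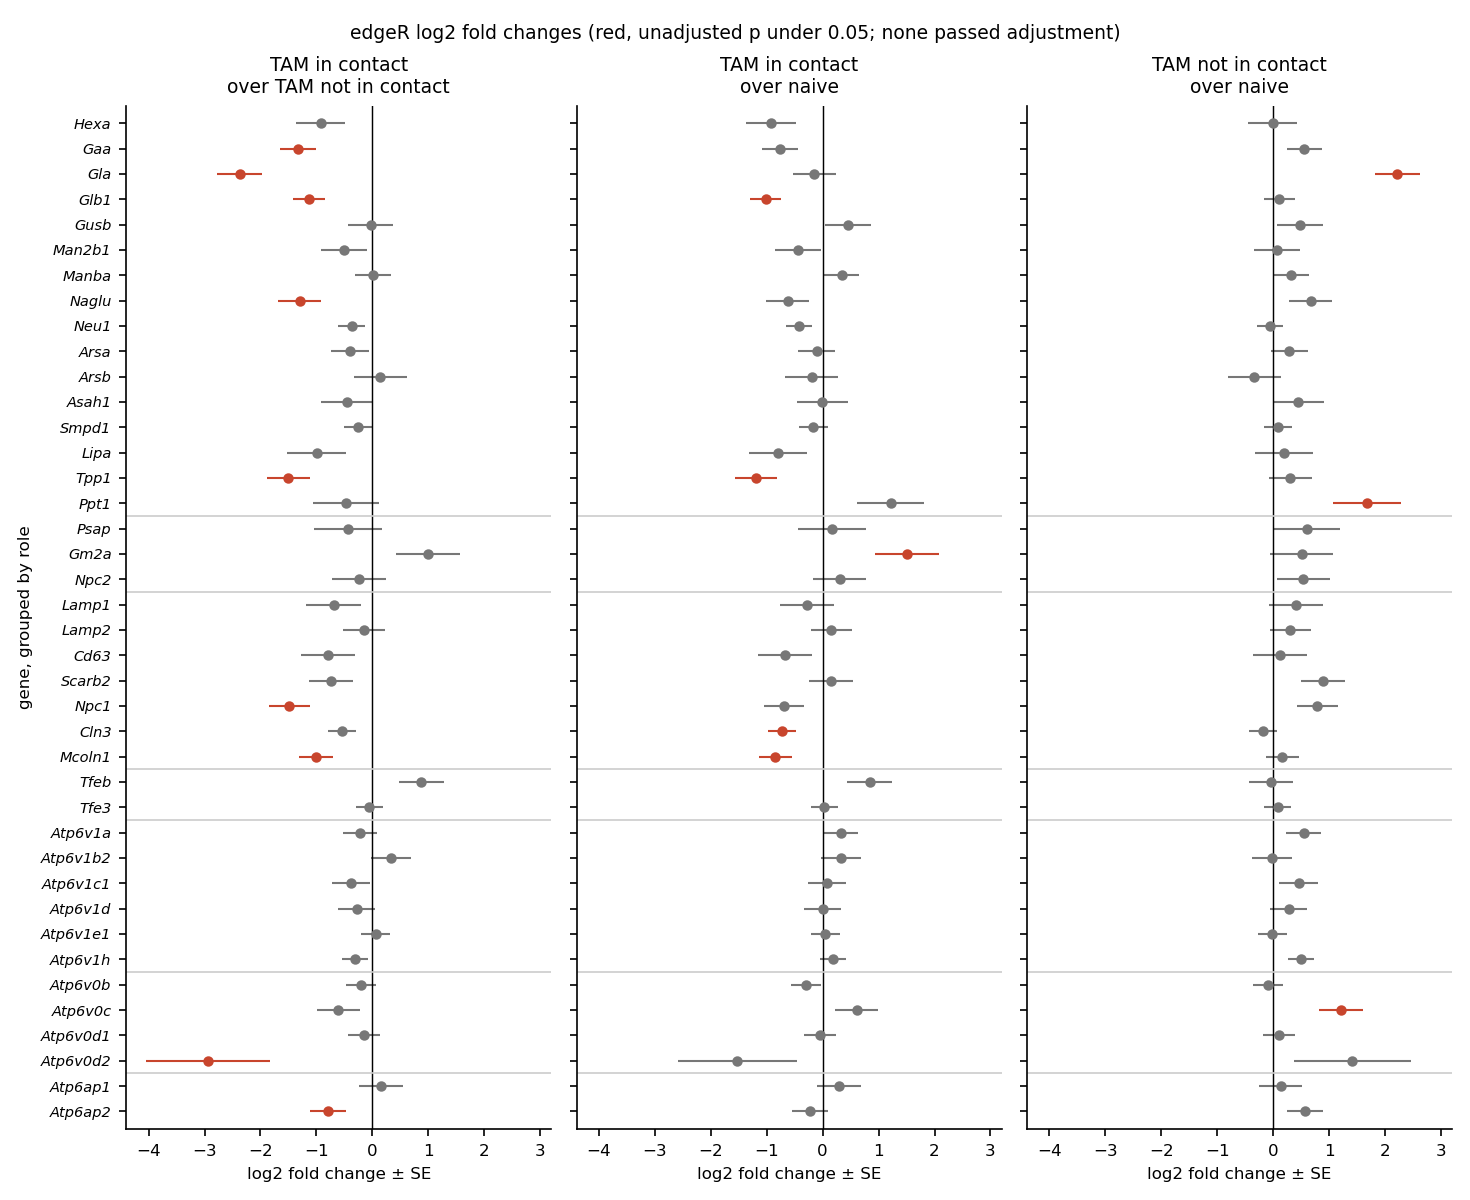
Fitted log2 fold change (horizontal axis, points) with its standard error (bars) for each of the 40 genes in the 3 comparisons, which share libraries. Red points have an unadjusted p under 0.05, and 0 of 40 members passed the adjusted test in any panel. Most hydrolases and all 7 membrane proteins lie left of 0 in the left panel.

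Against naive macrophages, TAM-IC had a member median of -0.08, against 0.00 for all genes, with 22 of 40 members negative against 49.8%. The 40 members held 0 of the 34 genes called by edgeR in this comparison (0.219% of all genes tested). Without overlap, 18 members were lower and 7 higher, against 36.7% and 23.0% of all genes. With library sizes scaled by TMM these counts were 14 and 10, against 29.1% and 30.3%. At an unadjusted p under 0.05, 4 members were lower (Tpp1, Glb1, Cln3 and Mcoln1) and 1 was higher (Gm2a), against 7.51% and 7.11%. DESeq2 called Tpp1 and Glb1 lower and 0 members higher, against 4.93% and 3.06%, and limma-voom called 0. Resident macrophage markers again moved with the comparison, with 14 of 15 lower and without overlap and 2 of them called, Cd5l and Mrc1. All 10 monocyte markers had a positive value and all 12 neutrophil markers a negative one. The 10 B cell markers were all lower without overlap, with a median of -2.70 and sums of 399.9 and 493 CPM in TAM-NIC, 166 and 161 CPM in TAM-IC, and 658 and 730.2 CPM in naive macrophages. Of 10 erythroid markers 9 were in the table and tested, all 9 negative and 7 lower without overlap, with sums of 148 and 197 CPM in TAM-NIC, 146 and 39.3 CPM in TAM-IC, and 439 and 290.4 CPM in naive macrophages, and Epor was called (adjusted p = 0.0493). No marker in these lists was at 0, and the part of these cells in the lysosomal values was not tested.

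For TAM-NIC over naive macrophages, 32 of 40 members had a positive log2 fold change, against 53.7% of all genes, and the median was 0.31 against 0.06. edgeR called 0 members and 0.0% of all genes. Without overlap, 8 members were higher and 4 lower (Neu1, Cln3, Atp6v1e1 and Atp6v0b, the latter named after their values were seen), against 16.6% and 28.9%. TMM scaling made these counts 9 and 1, against 21.9% and 22.7%, and the 1 still lower was Cln3. The 3 members with an unadjusted p under 0.05 were Gla, Ppt1 and Atp6v0c, all higher, against 7.78% of all genes higher and 7.39% lower. DESeq2 called Gla higher and 0 members lower, against 4.51% and 3.43%, and limma-voom called 0. This median was -0.08 without TAM-NIC replicate 1, with 9 members higher and 20 lower without overlap (35.0% and 46.1%), and 0.60 without replicate 2, with 29 higher and 5 lower (33.7% and 48.3%). Of the monocyte markers 8 of 10 were positive, with 4 higher and 0 lower without overlap. Of the resident macrophage markers 8 of 15 were negative, with 6 lower and 1 higher without overlap. DESeq2 called 3 monocyte markers higher and 2 resident macrophage markers lower. All 12 plasma cell markers had a positive value, with none at 0 and with sums, given above, that differed between the TAM-NIC libraries. The 12 neutrophil markers were all negative, 11 of them without overlap, and 7 of 10 eosinophil markers were lower without overlap, with a median of -4.38. Of the B cell markers 7 of 10 were lower and 1 higher without overlap, and all 10 markers of megakaryocytes and platelets were positive, 7 of them without overlap. All 9 erythroid markers tested were negative, 7 without overlap. The sums of these lists are given above, and their part in the lysosomal values was not tested.

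Among the 16 hydrolases the median log2 fold change was -0.49 for TAM-IC over TAM-NIC, with 14 of 16 negative against 50.1% of all genes and 11 of 16 lower without overlap against 22.3%. It was -0.31 over naive macrophages, with 13 of 16 negative against 49.8%. Summed over the hydrolases the level was 7919.5 and 4577 CPM in TAM-NIC, 3890.1 and 3758 CPM in TAM-IC, and 6551 and 4490.4 CPM in naive macrophages. TAM-IC had the lowest sums, and its libraries did not overlap with those of the other groups. Over single omitted libraries the median ranged from -1.02 to -0.32 against TAM-NIC and from -0.51 to -0.18 against naive macrophages, so its sign held in each.

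**Figure D3:**
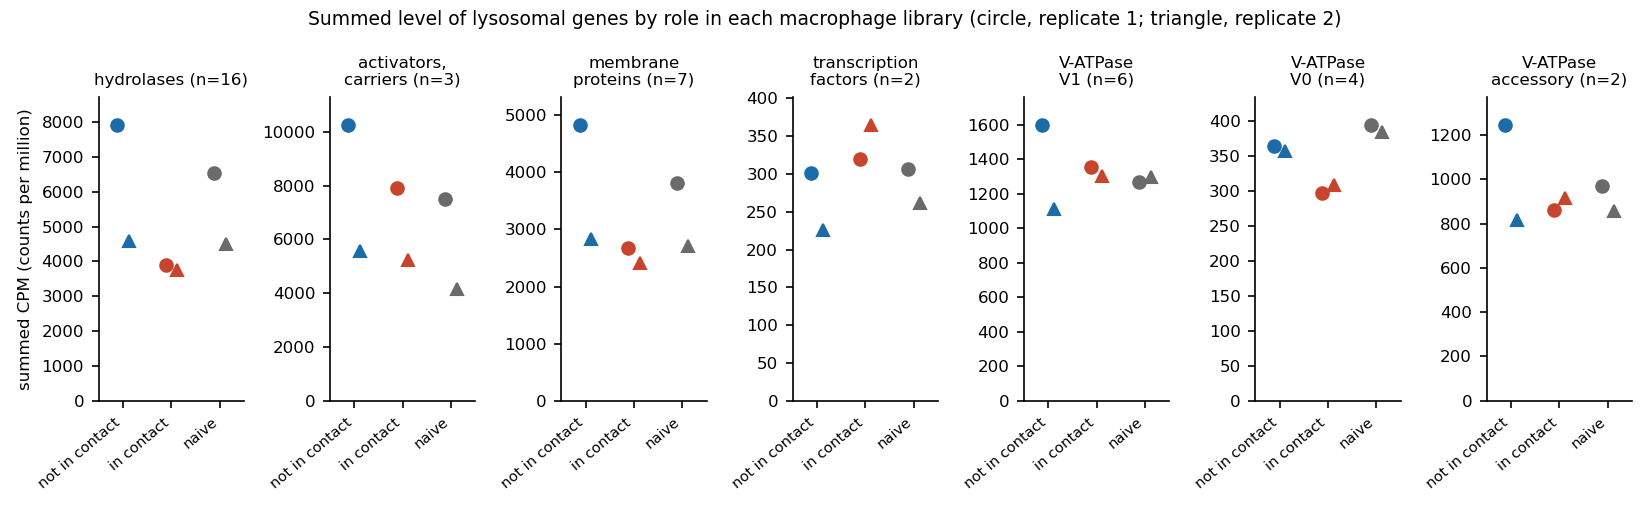
Summed CPM of the members of each role (vertical axes starting at 0) in each macrophage library, with circles for replicate 1 and triangles for replicate 2. For hydrolases and V0 subunits both libraries of TAM-IC lie below the other 4, whereas for V1 subunits they lie between the libraries of TAM-NIC.

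Gla (ENSMUSG00000031266.6, chrX:134588149-134601125, minus strand, GRCm38) encodes alpha-galactosidase A, which removes terminal galactose from glycosphingolipids. It was measured at 55.3 and 81.3 CPM in TAM-NIC, 17.7 and 8.50 CPM in TAM-IC, and 15.3 and 16.9 CPM in naive macrophages. Both libraries of TAM-NIC were above all others, and TAM-IC overlapped with naive macrophages. Its log2 fold change was -2.37 ± 0.40 (adjusted p = 0.125) for TAM-IC over TAM-NIC and 2.22 ± 0.40 (adjusted p = 0.219) for TAM-NIC over naive macrophages. The former was -2.58 (adjusted p = 0.0296) without TAM-NIC replicate 1, a fit in which the lone library left is assumed to vary like the other groups, and -2.12 (adjusted p = 0.129) without replicate 2. Over all single omissions its adjusted p ranged from 0.0296 to 0.813. DESeq2 gave adjusted p-values of 1.57e-05 and 0.00016. Gla lies on chromosome X, as do Lamp2, Tfe3, Atp6ap1 and Atp6ap2, and TAM-IC replicate 2 is the library with Ddx3y and without Xist counts.

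Gaa (ENSMUSG00000025579.14, chr11:119267887-119285454, plus strand) encodes acid alpha-glucosidase, the enzyme that degrades glycogen in lysosomes. Its levels were 316 and 309 CPM in TAM-NIC, 129 and 118 CPM in TAM-IC, and 288 and 178 CPM in naive macrophages. The libraries of TAM-IC were below all 4 others, and those of TAM-NIC were above both naive ones. As a log2 fold change this was -1.32 ± 0.32 (adjusted p = 0.185) against TAM-NIC, -0.76 ± 0.31 (adjusted p = 0.342) against naive macrophages and 0.56 ± 0.31 (adjusted p = 0.457) for TAM-NIC over naive. Without naive replicate 1 the values against naive macrophages were -0.36 and 0.95, and the last was 0.24 without naive replicate 2.

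Glb1 (ENSMUSG00000045594.9, chr9:114401076-114474898, plus strand), the lysosomal beta-galactosidase that trims gangliosides and keratan sulfate, stood at 123 and 112 CPM in TAM-NIC, 62.7 and 44.1 CPM in TAM-IC, and 138 and 103 CPM in naive macrophages. Here too the 2 libraries of TAM-IC lay below the other 4. TAM-IC had a log2 fold change of -1.13 ± 0.28 (adjusted p = 0.185) over TAM-NIC and -1.02 ± 0.28 (adjusted p = 0.223) over naive macrophages. Tpp1 (ENSMUSG00000030894.4, chr7:105744811-105752235, minus strand), a peptidase that removes tripeptides from the ends of proteins, had 644 and 434 CPM in TAM-NIC, 204 and 174 CPM in TAM-IC, and 590.0 and 370.3 CPM in naive macrophages. Its values in TAM-IC were again the lowest, without overlap. The corresponding changes were -1.50 ± 0.39 (adjusted p = 0.189) and -1.19 ± 0.38 (adjusted p = 0.271).

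Naglu, which acts on heparan sulfate, followed the same order at 183 and 109.7 CPM in TAM-NIC, 63.7 and 54.5 CPM in TAM-IC, and 127 and 75.9 CPM in naive macrophages. For TAM-NIC over naive macrophages its log2 fold change was 0.67 ± 0.38 (adjusted p = 0.462), with overlapping libraries and a value of 0.18 without TAM-NIC replicate 1, 1.09 without naive replicate 1 and 0.33 without naive replicate 2. Hexa was at 1001 and 531 CPM in TAM-NIC, 461 and 344 CPM in TAM-IC, and 993 and 706 CPM in naive macrophages, and Lipa, which hydrolyses cholesteryl esters, at 1213 and 634 CPM in TAM-NIC, 424 and 493 CPM in TAM-IC, and 1200.0 and 583 CPM in naive macrophages. In both genes TAM-IC was lowest, although replicate 1 was well above replicate 2 in each of the other groups. Man2b1, the acid alpha-mannosidase, showed the same arrangement at 1411 and 916 CPM in TAM-NIC, 755 and 863 CPM in TAM-IC, and 1447 and 1005 CPM in naive macrophages. Neu1, the lysosomal sialidase, had a narrower range at 177 and 196 CPM in TAM-NIC, 139 and 145 CPM in TAM-IC, and 207 and 219 CPM in naive macrophages. TAM-IC was below the rest. Naive macrophages were above the rest on library totals but overlapped with TAM-NIC under TMM scaling.

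Ppt1, which removes fatty acids from modified proteins, differed from this order at 1001 and 296 CPM in TAM-NIC, 549 and 393 CPM in TAM-IC, and 232 and 219 CPM in naive macrophages. Naive macrophages were lowest, and TAM-NIC replicate 1 was far above its own replicate. The log2 fold change of TAM-NIC over naive macrophages was 1.68 ± 0.60 (adjusted p = 0.283). It was 0.47 (adjusted p = 0.413) without TAM-NIC replicate 1 and 2.32 (adjusted p = 0.0416, with 1.66% of all genes called) without replicate 2, where the lone library left is assumed to vary like the other groups. Gusb, beta-glucuronidase, was at 323 and 149 CPM in TAM-NIC, 240.3 and 220.1 CPM in TAM-IC, and 186 and 189 CPM in naive macrophages. Manba, beta-mannosidase, was at 97.8 and 56.9 CPM in TAM-NIC, 75.9 and 79.0 CPM in TAM-IC, and 65.9 and 70.6 CPM in naive macrophages. In both genes the values of TAM-IC lay between those of the 2 TAM-NIC libraries. Arsb, the sulfatase of dermatan sulfate, had 63.3 and 26.5 CPM in TAM-NIC, 56.7 and 42.5 CPM in TAM-IC, and 48.9 and 77.3 CPM in naive macrophages, with TAM-IC inside the range of TAM-NIC. Arsa, the sulfatase of sulfatide, spanned 37.2 to 68.6 CPM over the 6 libraries, and Smpd1 51.3 to 81.3 CPM. TAM-IC lay below TAM-NIC without overlap in both of them. Asah1 was at 1175 and 589.7 CPM in TAM-NIC, 623 and 653 CPM in TAM-IC, and 864 and 563 CPM in naive macrophages, and TAM-IC fell within the range of each other group.

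The activators and luminal carriers did not share the order of the hydrolases. Gm2a, which lifts GM2 ganglioside out of the membrane for beta-hexosaminidase, had 819 and 278 CPM in TAM-NIC, 1039 and 1134 CPM in TAM-IC, and 504 and 349 CPM in naive macrophages. It was highest in TAM-IC, without overlap with either group, and its log2 fold change over naive macrophages was 1.51 ± 0.58 (adjusted p = 0.323). Its partner enzyme gene Hexa was lowest in the same libraries. Psap was at 8911 and 5042 CPM in TAM-NIC, 6488 and 3822 CPM in TAM-IC, and 6628 and 3559.8 CPM in naive macrophages, with replicate 1 above replicate 2 in each group and overlap between all groups. Npc2, the luminal cholesterol carrier that hands its cargo to Npc1, behaved likewise at 523 and 243 CPM in TAM-NIC, 384 and 266 CPM in TAM-IC, and 354 and 229 CPM in naive macrophages. The median of the 3 genes was -0.24 for TAM-IC over TAM-NIC and turned to 0.48 without TAM-NIC replicate 1.

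All 7 membrane proteins had negative log2 fold changes for TAM-IC over TAM-NIC, with a median of -0.74 and 5 of 7 lower without overlap, against 22.3% of all genes. Over naive macrophages the median was -0.67, again with 5 of 7 lower without overlap, against 36.7%. Without TAM-NIC replicate 1 the former median was -0.27. The latter was -0.19 without naive replicate 1 and -0.35 without TAM-IC replicate 2. Npc1, the exporter of cholesterol from the lysosome, was at 72.7 and 51.1 CPM in TAM-NIC, 22.6 and 21.4 CPM in TAM-IC, and 50.8 and 28.2 CPM in naive macrophages. Both libraries of TAM-IC were below the rest. Its log2 fold change was -1.48 ± 0.37 (adjusted p = 0.185) over TAM-NIC and -0.69 ± 0.36 (adjusted p = 0.424) over naive macrophages, and TAM-NIC over naive gave 0.79 ± 0.36 (adjusted p = 0.369). The values against naive macrophages were -0.19 and 1.28 without naive replicate 1 and -1.05 and 0.42 without naive replicate 2, and the last was 0.43 without TAM-NIC replicate 1.

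Mcoln1 (ENSMUSG00000004567.16, chr8:3500457-3515232, plus strand), the calcium channel of the lysosomal membrane also called TRPML1, had 74.6 and 116 CPM in TAM-NIC, 44.0 and 49.1 CPM in TAM-IC, and 106 and 80.3 CPM in naive macrophages. TAM-IC was lowest without overlap, and the other groups overlapped. On the log2 scale the fold change was -1.01 ± 0.30 (adjusted p = 0.206) over TAM-NIC and -0.85 ± 0.30 (adjusted p = 0.301) over naive macrophages. Cln3, a membrane protein whose loss causes a neuronal storage disease, was at 109 and 129 CPM in TAM-NIC, 71.8 and 88.6 CPM in TAM-IC, and 142 and 154 CPM in naive macrophages. Here the groups lay in the order TAM-IC, TAM-NIC and naive macrophages without overlap. TAM-IC differed by -0.55 ± 0.25 (adjusted p = 0.325) from TAM-NIC and by -0.72 ± 0.25 (adjusted p = 0.296) from naive macrophages on the log2 scale.

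Lamp1 (ENSMUSG00000031447.6, chr8:13159161-13175338, plus strand) was measured at 3216 and 1733 CPM in TAM-NIC, 1572 and 1479 CPM in TAM-IC, and 2507 and 1617 CPM in naive macrophages. On library totals both libraries of TAM-IC were below the other 4, by little against replicate 2 of either group. With library sizes scaled by TMM, Lamp1 was lowest in naive replicate 2 and overlapped between TAM-IC and naive macrophages. Its log2 fold change was -0.69 ± 0.49 (adjusted p = 0.51) over TAM-NIC, -0.28 ± 0.49 (adjusted p = 0.815) over naive macrophages and 0.41 ± 0.49 (adjusted p = 0.751) for TAM-NIC over naive. The first was -0.12 without TAM-NIC replicate 1 and -1.11 without replicate 2. The second turned to 0.08 without naive replicate 1 and was -0.56 without replicate 2. The last turned to -0.19 without TAM-NIC replicate 1 and ranged up to 0.80 without replicate 2. Scarb2, the receptor that brings glucocerebrosidase to the lysosome, was at 269 and 161 CPM in TAM-NIC, 133 and 123 CPM in TAM-IC, and 162 and 93.7 CPM in naive macrophages, and TAM-NIC over naive gave 0.90 ± 0.40 (adjusted p = 0.356) with overlapping libraries by a small margin and a range from 0.39 to 1.34 over single omissions, the lowest without TAM-NIC replicate 1 and the highest without naive replicate 1. Lamp2, the partner of Lamp1, spanned only 581 to 929 CPM, and TAM-IC overlapped with both groups. Cd63 was at 159.9 and 66.5 CPM in TAM-NIC, 84.4 and 47.0 CPM in TAM-IC, and 119 and 112 CPM in naive macrophages, where TAM-IC overlapped with TAM-NIC and lay below naive macrophages.

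Tfeb, unlike most hydrolases, was highest in TAM-IC. The gene (ENSMUSG00000023990.18, chr17:47737030-47792419, plus strand) had 136 and 74.8 CPM in TAM-NIC, 156 and 227 CPM in TAM-IC, and 132 and 108 CPM in naive macrophages. Both libraries of TAM-IC were above all others. Fitted log2 fold changes were 0.88 ± 0.40 (adjusted p = 0.326) over TAM-NIC, 0.84 ± 0.40 (adjusted p = 0.389) over naive macrophages and -0.04 ± 0.39 (adjusted p = 0.979) for TAM-NIC over naive. The first was 1.42 without TAM-NIC replicate 1, 0.46 without replicate 2 and 0.54 without TAM-IC replicate 2, and the second 0.49 without TAM-IC replicate 2. The last ranged from -0.61 to 0.35 without TAM-NIC replicate 1 and 2. Tfe3 was nearly level at 164 and 151 CPM in TAM-NIC, 164 and 137 CPM in TAM-IC, and 174 and 154 CPM in naive macrophages, and all groups overlapped. TAM-IC gave -0.05 ± 0.24 (adjusted p = 0.936) over TAM-NIC and 0.03 ± 0.24 (adjusted p = 0.962) over naive macrophages, and TAM-NIC gave 0.09 ± 0.24 (adjusted p = 0.911) over naive, with signs that depended on the scaling and on the library left out. Activity of these factors is set largely by their entry into the nucleus, which RNA counts do not measure.

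The 12 subunits of the V-ATPase summed to 3209.8 and 2286 CPM in TAM-NIC, 2512 and 2529 CPM in TAM-IC, and 2634 and 2543 CPM in naive macrophages. TAM-IC lay between the libraries of TAM-NIC. It was just below both naive ones on library totals, but above both with library sizes scaled by TMM. The median log2 fold change was -0.25 for TAM-IC over TAM-NIC, with 4 of 12 lower without overlap against 22.3% of all genes. It ranged from -0.50 to 0.12 over single omitted libraries, the latter without TAM-NIC replicate 1. Over naive macrophages it was 0.06, with 4 of 12 lower and 2 of 12 higher without overlap, both shares below the 36.7% and 23.0% of all genes. TAM-NIC over naive gave a median of 0.37, with 4 of 12 higher against 16.6% and 2 of 12 lower against 28.9%, and -0.07 without TAM-NIC replicate 1. For TAM-IC over TAM-NIC the 6 V1 subunits had a median of -0.25 and the 4 V0 subunits -0.41. All 4 V0 subunits were negative, against 50.1% of all genes, and 2 of 4 lower without overlap, against 22.3%. Their sums were 365 and 358 CPM in TAM-NIC, 298 and 308 CPM in TAM-IC, and 395 and 385 CPM in naive macrophages, lowest in TAM-IC.

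In the V1 sector, Atp6v1a, the catalytic A subunit, had 303 and 198 CPM in TAM-NIC, 219.5 and 207 CPM in TAM-IC, and 193 and 187 CPM in naive macrophages. TAM-IC was above naive macrophages and within the range of TAM-NIC. Its log2 fold change was 0.32 ± 0.31 (adjusted p = 0.649) over naive macrophages, and 0.55 ± 0.31 (adjusted p = 0.459) for TAM-NIC over naive, which was 0.14 without TAM-NIC replicate 1 and 0.84 without replicate 2. Atp6v1h, a regulatory subunit that joins V1 to V0, was at 169.6 and 154 CPM in TAM-NIC, 134 and 123 CPM in TAM-IC, and 129 and 123 CPM in naive macrophages, with TAM-NIC above both other groups. It gave -0.31 ± 0.23 (adjusted p = 0.525) for TAM-IC over TAM-NIC and 0.50 ± 0.23 (adjusted p = 0.371) for TAM-NIC over naive. Atp6v1b2, the B subunit found in most tissues, stood at 505 and 302 CPM in TAM-NIC, 492 and 522 CPM in TAM-IC, and 454 and 447 CPM in naive macrophages. Its libraries in TAM-IC were above naive macrophages and overlapped with TAM-NIC. Atp6v1e1, of the peripheral stalk, spanned only 218 to 265 CPM. Atp6v1c1 ranged from 116 to 221 CPM and Atp6v1d from 99.3 to 178 CPM, each with its highest value in TAM-NIC replicate 1 and its lowest in TAM-IC replicate 2.

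In the V0 sector the 2 forms of subunit d differed in level and in pattern. Atp6v0d1, the form found in most tissues, had 143 and 97.3 CPM in TAM-NIC, 116 and 99.0 CPM in TAM-IC, and 119 and 129 CPM in naive macrophages. On library totals all groups overlapped except that TAM-IC was below naive macrophages. With TMM scaling all groups of Atp6v0d1 overlapped. For TAM-IC over TAM-NIC its log2 fold change was -0.15 ± 0.28 (adjusted p = 0.822), over naive macrophages -0.05 ± 0.28 (adjusted p = 0.948), and for TAM-NIC over naive 0.10 ± 0.28 (adjusted p = 0.906), and each changed sign with a library left out. Atp6v0d2 (ENSMUSG00000028238.6, chr4:19876841-19922605, minus strand), the form known from osteoclasts and macrophages, was at 17.4 and 2.19 CPM in TAM-NIC, 0.584 and 1.95 CPM in TAM-IC, and 4.03 and 4.19 CPM in naive macrophages. A single library, TAM-NIC replicate 1, stood far above the rest. TAM-IC differed by -2.94 ± 1.11 (adjusted p = 0.263) from TAM-NIC and by -1.52 ± 1.06 (adjusted p = 0.529) from naive macrophages on the log2 scale. The former was -0.72 without TAM-NIC replicate 1, and the latter -0.88 and -2.69 without TAM-IC replicate 1 and 2. TAM-NIC over naive gave 1.42 ± 1.04 (adjusted p = 0.587), which was -0.83 without TAM-NIC replicate 1 and 2.25 without replicate 2. The same library also had the highest levels of the osteoclast markers Ctsk, at 47.8 and 3.16 CPM in TAM-NIC, 0.202 and 5.20 CPM in TAM-IC, and 2.65 and 4.67 CPM in naive macrophages, Acp5, at 1168 and 217 CPM in TAM-NIC, 459 and 166 CPM in TAM-IC, and 176 and 111 CPM in naive macrophages, and Dcstamp, at 1.69 and 0.483 CPM in TAM-NIC, 0.0225 and 0.19 CPM in TAM-IC, and 0.469 and 0.138 CPM in naive macrophages. The latter pair was named after its values were seen. The summed level of the 10 markers was 1678 and 1796 CPM in TAM-NIC, 2281 and 1909 CPM in TAM-IC, and 3586 and 5639 CPM in naive macrophages, most of it from Mmp9 in 5 of the 6 libraries, a gene that neutrophils express too, at 198 and 1359 CPM in TAM-NIC, 1446 and 1336 CPM in TAM-IC, and 3076 and 5205 CPM in naive macrophages. Ocstamp and Nfatc1 of the same list did not peak in TAM-NIC replicate 1. Ocstamp was at 14.7 and 1.61 CPM in TAM-NIC, 28.3 and 9.33 CPM in TAM-IC, and 1.13 and 0.242 CPM in naive macrophages. Nfatc1 was at 188 and 105 CPM in TAM-NIC, 233 and 275 CPM in TAM-IC, and 202 and 190 CPM in naive macrophages. Of the 8 osteoclast markers tested, 5 were positive and 3 negative for TAM-IC over TAM-NIC. Calcr was at 0 in all 6 libraries and Oscar at 0 in 3, and the part of osteoclasts in Atp6v0d2 was not tested.

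Atp6v0c, which builds the proteolipid ring, had 12.6 and 11.7 CPM in TAM-NIC, 8.97 and 6.81 CPM in TAM-IC, and 6.89 and 4.60 CPM in naive macrophages, with the reservation on pseudogenes given above. The libraries of TAM-NIC were highest and those of naive macrophages and TAM-IC met at 6.89 and 6.81 CPM. Its log2 fold changes were -0.61 ± 0.38 (adjusted p = 0.461) for TAM-IC over TAM-NIC, 0.61 ± 0.38 (adjusted p = 0.495) over naive macrophages and 1.22 ± 0.39 (adjusted p = 0.252) for TAM-NIC over naive. The second was 0.94 without naive replicate 1 and 0.35 without naive replicate 2. Atp6v0b, the other proteolipid, was at 191 and 247 CPM in TAM-NIC, 172 and 201 CPM in TAM-IC, and 265 and 247 CPM in naive macrophages. Naive replicate 2 exceeded TAM-NIC replicate 2 only by 247.025 against 246.849 CPM, and with TMM scaling these groups overlapped. For TAM-IC over naive, Atp6v0b gave -0.30 ± 0.27 (adjusted p = 0.631). Atp6ap2, the accessory subunit also known as the prorenin receptor, was at 541 and 407 CPM in TAM-NIC, 309.7 and 234 CPM in TAM-IC, and 384 and 321 CPM in naive macrophages. On library totals TAM-IC was lowest and TAM-NIC highest, without overlap. With TMM scaling TAM-IC overlapped with naive macrophages. The log2 fold change was -0.79 ± 0.32 (adjusted p = 0.289) for TAM-IC over TAM-NIC and 0.57 ± 0.32 (adjusted p = 0.458) for TAM-NIC over naive, or -0.52 and 0.28 without TAM-NIC replicate 1. Atp6ap1 was at 705 and 409 CPM in TAM-NIC, 550.1 and 683 CPM in TAM-IC, and 587 and 538 CPM in naive macrophages, and TAM-IC overlapped with both groups.

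The balance of hydrolases and proton pump was taken as the ratio of the summed counts of the 16 hydrolases to those of the 12 V-ATPase subunits within each library, a measure chosen after the values were seen and given without a test. The ratio was 2.47 and 2.00 in TAM-NIC, 1.55 and 1.49 in TAM-IC, and 2.49 and 1.77 in naive macrophages. Both libraries of TAM-IC lay below the other 4. The ratio does not depend on library size, because both sums come from the same library. With each gene given the same weight, the mean log2 CPM of the hydrolases exceeded that of the pump subunits by 0.68 and 0.71 in TAM-NIC, by 0.41 and 0.30 in TAM-IC, and by 0.76 and 0.50 in naive macrophages, in the same arrangement. With Psap, Gm2a and Npc2 added to the hydrolases the ratio was 5.66 and 4.44, 4.70 and 3.55, and 5.33 and 3.39, and all groups overlapped.

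**Figure D4:**
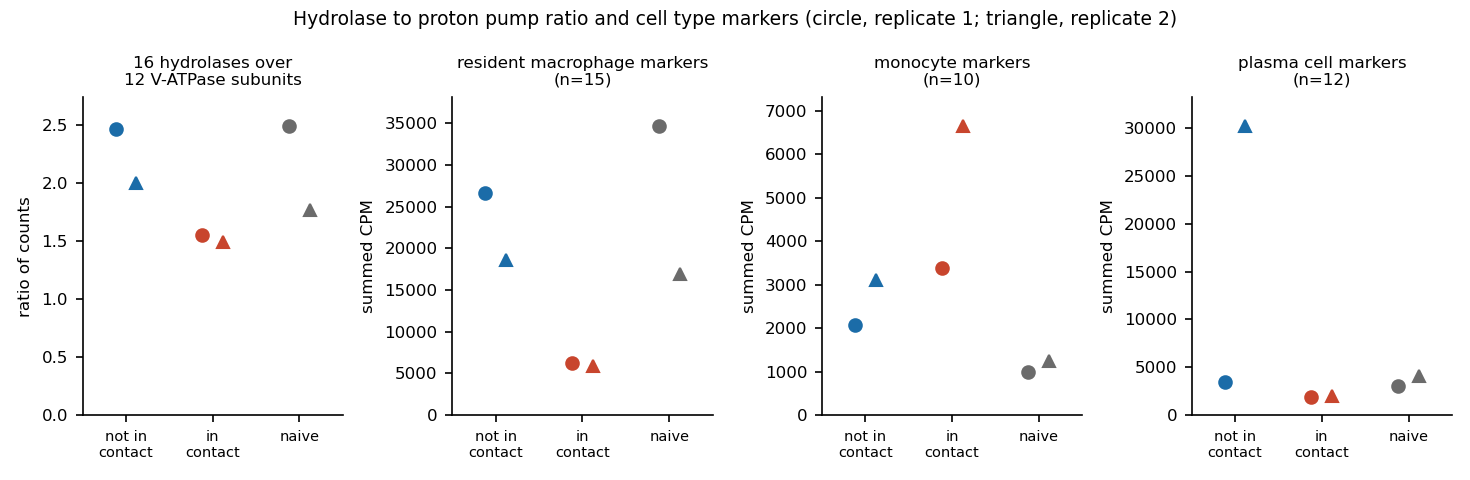
Ratio of hydrolase to V-ATPase counts (left panel) and summed CPM of the markers of resident macrophages, monocytes and plasma cells (other panels) in each macrophage library, with all axes starting at 0. TAM-IC has the lowest ratios, 1.55 and 1.49, and also the lowest resident macrophage sums, and TAM-NIC replicate 2 has the highest plasma cell sum.

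The members were also described by the E-box in their promoters. All 11 members with CACGTG in a promoter had negative log2 fold changes for TAM-IC over TAM-NIC, with a median of -0.69 and 8 of 11 lower without overlap. The 23 members with a promoter in the table but without these letters had a median of -0.28, with 17 negative and 9 lower without overlap. Of all genes, 50.1% were negative and 22.3% lower without overlap. Without TAM-NIC replicate 1 the medians were -0.62 with the E-box and 0.09 without it. The range over single omitted libraries was -0.79 to -0.62 with the E-box and -0.63 to 0.09 without it. Over naive macrophages the medians were -0.30 with the E-box and 0.05 without it. For TAM-NIC over naive they were 0.29 and 0.28. The difference between the 2 sets of members was not tested. Of the genes whose sites are printed above, Gla, Gaa, Glb1, Naglu, Mcoln1, Cln3 and Lamp1 were lower in TAM-IC than in TAM-NIC without overlap, and Atp6v1a and Atp6v0d1 overlapped. Arsa and Atp6v0b also held the E-box, with no site printed. Arsa was lower without overlap and Atp6v0b overlapped.

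Other genes of the pathway were read from 7 lists with 125 distinct genes. The 12 cathepsins, the proteases of the lysosome, were all negative for TAM-IC over TAM-NIC, with a median of -1.23, 7 of 12 lower without overlap against 22.3% of all genes and 0 called. Without TAM-NIC replicate 1 this median was -0.63. Ctsf had 36.8 and 32.9 CPM in TAM-NIC, 4.83 and 3.96 CPM in TAM-IC, and 94.6 and 52.7 CPM in naive macrophages. It fell in TAM-IC relative to naive macrophages, with a log2 fold change of -3.91 ± 0.37 (adjusted p = 0.0425), and was the only gene of these lists called by edgeR in any of the 3 comparisons. That call was lost with limma-voom and without any single library of TAM-IC or of naive macrophages, settings that called 0 genes. Ctsl had 221 and 197 CPM in TAM-NIC, 56.5 and 52.3 CPM in TAM-IC, and 168 and 87.9 CPM in naive macrophages, with TAM-IC lowest and a log2 fold change of -1.93 ± 0.36 (adjusted p = 0.146) over TAM-NIC.

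The 25 other hydrolases had a median of -0.80 for TAM-IC over TAM-NIC, with 16 negative and 0 called. Without overlap 13 of 25 were lower and 3 higher, against 22.3% and 24.4% of all genes, and the median was -0.28 without TAM-NIC replicate 1. Pld3, an exonuclease of the lysosome, had 1778 and 1317 CPM in TAM-NIC, 154 and 65.1 CPM in TAM-IC, and 3030.2 and 1429 CPM in naive macrophages, and TAM-IC was lowest without overlap. Its log2 fold change was -3.82 ± 0.65 (adjusted p = 0.125) over TAM-NIC and -4.20 ± 0.66 (adjusted p = 0.09) over naive macrophages. Among 20 other lysosomal membrane proteins 16 were negative and 0 called, with a median of -0.48 that turned to 0.09 without TAM-NIC replicate 1. Without overlap 7 of 20 were lower and 1 higher, against the same 22.3% and 24.4%. The 13 remaining V-ATPase subunits, of which 7 were tested, had a median of 0.04. Without overlap 3 of 7 were lower and 0 higher, again against 22.3% and 24.4% of all genes. The sign of this median depended on the libraries used. This median ranged from -0.94 to -0.27 with a library of either group left out, settings in which 7 to 9 genes of the list were tested. In that list Atp6v0a1, an isoform of the large V0 subunit a, stood at 182 and 234 CPM in TAM-NIC, 75.0 and 60.2 CPM in TAM-IC, and 250.3 and 185 CPM in naive macrophages, lowest in TAM-IC, with -1.60 ± 0.29 (adjusted p = 0.135) over TAM-NIC and -1.53 ± 0.29 (adjusted p = 0.122) over naive macrophages.

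Lists of regulation, delivery and autophagy had medians nearer 0. The 21 genes of the MiT factors and of nutrient signalling at the lysosome had a median of -0.23, with 5 of 21 higher and 7 of 21 lower without overlap, against 24.4% and 22.3% of all genes, and 0 called. It was -0.04 without TAM-IC replicate 1 and -0.11 without TAM-NIC replicate 2. Rragd, a Rag GTPase of that list, was at 13.5 and 11.8 CPM in TAM-NIC, 1.98 and 1.99 CPM in TAM-IC, and 14.8 and 7.30 CPM in naive macrophages, lowest in TAM-IC, with -2.65 ± 0.48 (adjusted p = 0.135) over TAM-NIC. Tfec, a relative of Tfeb, was at 28.9 and 23.8 CPM in TAM-NIC, 12.7 and 6.98 CPM in TAM-IC, and 30.1 and 32.2 CPM in naive macrophages, again lowest in TAM-IC, with -1.41 ± 0.34 (adjusted p = 0.185). The 12 genes of enzyme delivery had a median of 0.00, which was 0.36 without TAM-NIC replicate 1 and -0.37 without replicate 2. The 2 higher and 2 lower without overlap were smaller shares than those of all genes. The 22 autophagy genes had a median of 0.26, with 16 positive, 6 negative and 0 called. Without overlap 11 of 22 were higher and 4 of 22 lower, against the same 24.4% and 22.3%, and the median ranged from 0.16 to 0.45 with a library of either group left out. Uvrag, a subunit of the autophagy lipid kinase complex, was at 119.9 and 121 CPM in TAM-NIC, 164 and 171 CPM in TAM-IC, and 90.4 and 87.3 CPM in naive macrophages, highest in TAM-IC, with 1.07 ± 0.22 (adjusted p = 0.152) over naive macrophages.

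**Figure D5:**
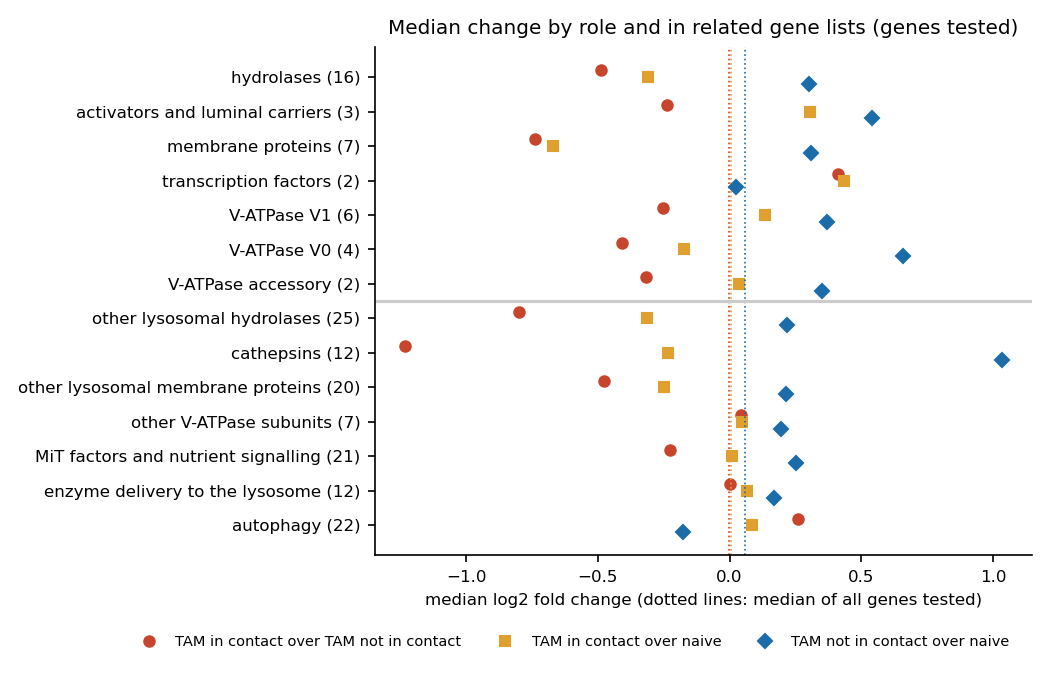
Median log2 fold change (horizontal axis) of the 7 roles of the 40 members (upper rows) and of 7 lists of related genes (lower rows), with the number of genes tested in parentheses and 1 symbol per comparison. Dotted lines mark the medians of all genes tested, and cathepsins lie farthest from them, at -1.23 for TAM-IC over TAM-NIC.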

How the data were processed

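Bulk RNA of 6 macrophage and 2 plasma cell samples was analysed. The authors deposited raw read counts of genes, separately for macrophages and plasma cells. Per the labels' protocols, the library kit was SMART-Seq v4 Ultra Low Input. STAR, featureCounts, DESeq2 1.26, mm10 and GRCm38 are named per the submitters' processing notes, and their annotation release, strand setting and handling of multi-mapping reads are not given in the sources used. A total of 0 columns were left without a sample. Of 47643 identifiers 47224 matched GENCODE M21 (GRCm38), which also gave coordinates and exon lengths. Promoters came from RefSeq.

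The 6 macrophage libraries were fitted together by group with the quasi-likelihood test of edgeR 4.0.16 in R 4.3.3 (TMM scaling, filterByExpr with minimum count 10 and minimum total count 15, 15522 genes, 3 residual degrees of freedom). A call needs a p under 0.05 after Benjamini-Hochberg adjustment across the genes tested, and ± marks the standard error of a log2 fold change, with 2 libraries per group. All 3 pairs of groups were compared, and these comparisons share libraries. CPM values use the library total. Libraries "did not overlap" where every CPM of a group lay above every CPM of the other. Mean log2 CPM used a pseudocount of 0.5. Alternatives were DESeq2 1.42.0, limma-voom (limma 3.58.1), RLE size factors, no filter or a minimum count of 50, bias-adjusted quasi-dispersions, immunoglobulin genes left out, only the 4 libraries compared, a replicate block and each library left out, where the lone library of a group is assumed to vary like the other groups. The counts without overlap under TMM scaling or with a library left out, the medians of the pathway lists and of the members with and without the E-box with a library left out, and the forms of the hydrolase ratio, were added after seeing the data. Recovery was tested on 12351 genes with simulated counts (TAM-IC over TAM-NIC). Of 100 genes with a true log2 change of 2, edgeR found 41 and DESeq2 76. Of 100 with a change of 4, they found 91 and 98. False calls numbered 15 and 91.

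The members, the gene lists and the markers were chosen with earlier results of these data known. Fold changes were printed for up to 4 genes with the smallest p among hydrolases, activators and carriers, up to 3 among membrane proteins and up to 4 among V-ATPase subunits per comparison, always for Tfeb, Tfe3, Lamp1, Atp6v0d1 and Atp6v0d2, and for up to 2 genes per pathway list. Of the marker lists, summed levels are given beside the results.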

Additional observations from a re-analysis of the deposited data

How the results depend on the processing

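For TAM-IC over TAM-NIC, the count of genes called (0) was 1593 with DESeq2, 1871 without a filter, 22 with bias-adjusted quasi-dispersions and 0 to 1510 with a library left out, the highest without TAM-NIC replicate 1. The count of members called (0) was 7 with DESeq2, 7 without a filter and 0 to 2 with a library left out, and the member median ranged from -0.71 to -0.12. For TAM-IC over naive macrophages, the count of genes called (34) was 1191 with DESeq2, 0 with limma-voom, 22 with RLE size factors, 1437 without a filter, 56 with bias-adjusted quasi-dispersions, 20 without immunoglobulin genes, 664 with only the 4 libraries compared and 0 to 534 with a library left out, at 0 without either library of TAM-IC or of naive macrophages. The count of members called (0) was 2 with DESeq2 and 1, Gm2a, without a filter. For TAM-NIC over naive, the count of genes called (0) was 1264 with DESeq2, 1548 without a filter and 0 to 477 with a library left out. The count of members called (0) was 1 with DESeq2, 2 (Gla and Ppt1) without a filter and 0 to 1 with a library left out, and the member median ranged from -0.082 to 0.60. The cause of these shifts was not tested.

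Of the alternative fold changes of named members, 635 kept their sign and their side of the threshold, 20 newly passed it, and 20 turned in sign. The Tfe3 change over naive macrophages in TAM-IC (0.03) was -0.014 with DESeq2, -0.014 with RLE size factors, -0.023 at a minimum count of 50, -0.0066 without immunoglobulin genes and -0.0028 with only the 4 libraries compared. With a library left out the sign turned for the following log2 fold changes. For TAM-IC over TAM-NIC it ranged from -0.16 to 0.054 for Tfe3, from -0.45 to 0.20 for Atp6v0d1. For TAM-IC over naive it ranged from -0.055 to 0.13 for Tfe3, from -0.12 to 0.019 for Atp6v0d1, from -0.56 to 0.085 for Lamp1. For TAM-NIC over naive it ranged from -0.19 to 0.80 for Lamp1, from -0.044 to 0.17 for Tfe3, from -0.27 to 0.38 for Atp6v0d1, from -0.83 to 2.25 for Atp6v0d2, from -0.61 to 0.35 for Tfeb.

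The main fit did not use the replicate numbers as pairs, since libraries called mouse 2 differed in Xist and Ddx3y counts. Those called mouse 1 had 841 (TAM-NIC) and 777 (TAM-IC) counts of Xist and 0 of Ddx3y. These counts do not tell whether they share an animal, and the main fit treats them as independent. With a replicate block 59, 57 and 0 genes and 0, 0 and 0 members were called in the order above, with member medians of -0.37, -0.08 and 0.29. Correlations of deviations between same-numbered libraries were 0.152 for the TAM groups, 0.0393 for TAM-IC and naive and 0.0888 for TAM-NIC and naive. Depth bears most on Atp6v0d2, with 26 counts in TAM-IC replicate 1, and all other members had at least 133 counts in every macrophage library.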
